A study of Drosophila melanogaster with 23 samples.

Results

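The proteasome is the protease that degrades ubiquitin-tagged proteins in the cytoplasm and nucleus. Its core is a barrel of stacked rings, in which the alpha (Prosalpha) subunits gate the entry and the beta (Prosbeta) subunits line the chamber, some of them carrying the proteolytic sites. The regulatory cap has a base, whose ring of Rpt ATPases unfolds substrates and whose large Rpn subunits hold ubiquitin receptors, and a lid of further Rpn subunits around the deubiquitinase Rpn11. In clock neurons the proteasome removes the feedback repressors PERIOD and TIMELESS after they have been ubiquitinated. Drosophila also carries duplicate copies of many subunit genes, named with a final T or R, several of which are known for expression in the male germ line.

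Genes were taken as members where their current RefSeq symbol began with Prosalpha, Prosbeta, Rpn or Rpt (the last pair followed by a digit) and where a probe set was assigned to that gene alone. This gave 40 of the 11982 genes with a probe set of their own. They comprise 26 standard subunits and 14 duplicate copies. The standard members are 6 of the alpha ring, 6 of the beta ring, 4 base ATPases, 3 other base subunits and 7 lid subunits. Of the 48 family genes in RefSeq, 6 had no listed probe set (Prosbeta1, Rpn9, Rpn10, Rpt1, Rpt6 and Rpt6R), and Prosalpha1 and Prosalpha1R shared a probe set.

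The study profiled hand-picked fluorescent cells of larval and adult Drosophila melanogaster heads on 23 one-colour Affymetrix arrays, 1 array per sample, with 3 samples in each of 8 groups except adult small Pdf cells, which had 2. Animals lived under 12 h of light and 12 h of darkness, about 50 heads were dissected near Zeitgeber time 12, and tissue was dissociated with protease before sorting. The 4 adult groups were large Pdf cells and small Pdf cells, told apart by cell size, whole dissected eyes, and Elav cells. The 4 larval groups were Pdf cells, Tim cells, Tim cells of flies that also carried Pdf-Gal80 (called Tim without Pdf here), and Elav cells. The Elav lines carried Elav-Gal4 and UAS-GFP, where elav is active in neurons in general, and the Pdf lines carried Pdf-Gal4 and UAS-GFP, where Pdf encodes a clock neuropeptide. The Tim lines carried Tim-Gal4 and UAS-YFP, driven from the clock gene timeless, although another label calls these cells GFP cells. Pdf-Gal80 is a repressor of Gal4 in the Pdf cells, and the title of that group spells it Gad80. The eye label names no sorted cell. Each array received RNA amplified through successive T7 rounds from between 0.1 and 0.4 ng of input RNA, a step that shortens transcripts towards their 3′ ends.

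All values are log2 GCRMA values as deposited, and GCRMA places undetected probe sets near the bottom of a scale that ran here from 1.68 to 16.2. A log2 value of 5 was used as the limit of detection. Between replicate arrays of a group the correlation across kept genes lay between 0.846 and 0.966. The labels call the samples biological replicates without naming separate animals, so each p-value reflects only the spread among these samples, and the number of arrays limits the precision. The marker genes of PDF clock neurons were Pdf, tim, per, cry, Clk, vri, Pdp1, cwo, Pdfr and Fer2. They include clock genes such as tim (timeless), so a high count does not by itself show PDF cells. Of these 10 genes, 9 and 10 had a group mean above 5 in adult large and small Pdf cells, 7 in the eye and 5 in adult Elav cells. In larvae 10 were above 5 in Pdf cells, 9 in Tim cells, 5 in Tim cells without Pdf and 3 in Elav cells. Levels are compared between groups for the same probe set, never between genes. A gene was called higher or lower where limma's Benjamini-Hochberg adjusted p, taken over 7670 tested genes, was below 0.05 with a fold of 2 or more.

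All 26 standard subunits were above 5 on all 23 arrays, with a lowest single value of 5.10. The median of the 26 log2 values on each array gives the level of the set. In adults this median was 10.15 ± 0.53 in large Pdf cells (n = 3), 10.79 ± 0.15 in small Pdf cells (n = 2), 9.60 ± 0.46 in the eye (n = 3) and 10.54 ± 0.26 in Elav cells (SD, n = 3). In larvae it was 11.44 ± 0.25 in Pdf cells, 11.83 ± 0.17 in Tim cells, 11.41 ± 0.16 in Tim cells without Pdf and 12.05 ± 0.58 in Elav cells (SD, n = 3 each). Adult arrays ran from 9.07 to 10.90 and larval arrays from 11.19 to 12.53, so no adult array reached a larval one. In the order of group means, the ranges of larval Elav and larval Tim arrays overlapped, as did those of larval Pdf cells and Tim cells without Pdf, adult small Pdf and adult Elav cells, adult Elav and large Pdf cells, and large Pdf cells and the eye. Lower levels in a bulk sample may come from fewer cells of a type or from less RNA per cell, which cannot be told apart.

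**Figure D1:**
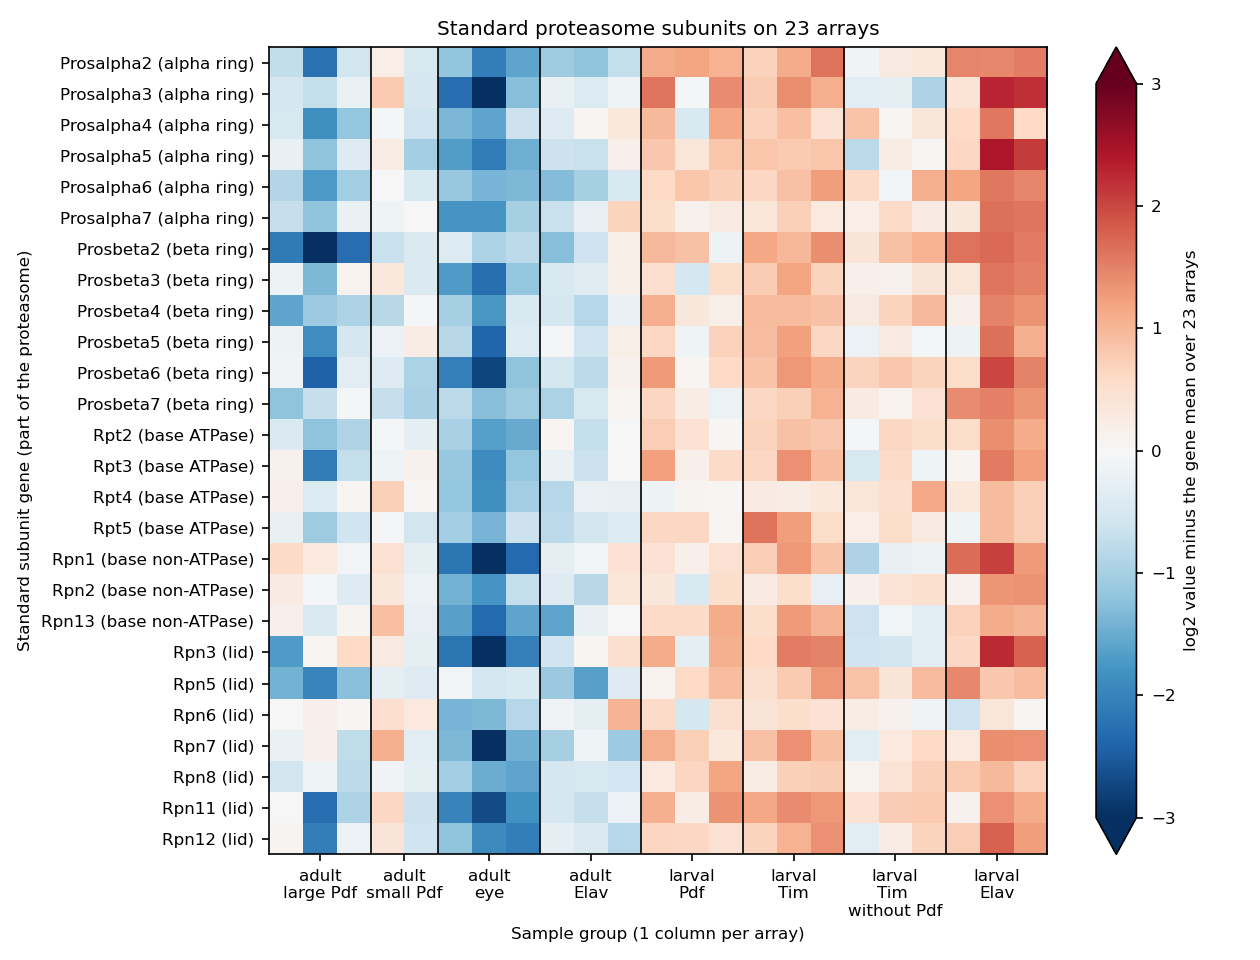
Log2 value of each of the 26 standard subunits on each of the 23 arrays (columns, by group) minus that gene's mean over the arrays, with rows ordered by the part of the proteasome. The 12 larval columns are mostly red and the 11 adult columns mostly blue, with the darkest blue in the eye, and Rpn6 varies least, with a range of group means of 1.65.

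Most standard subunits shared the groups with the highest and the lowest mean. The highest group mean lay in larval Elav cells for 19 of the 26, in larval Tim cells for 6 and in Tim cells without Pdf for 1. The lowest lay in the eye for 23 and in adult large Pdf cells for 3. For 17 of the 26, every adult group mean was below every larval group mean. The shares of all tested genes with these orders were not worked out, so the counts have no background beside them. Of all tested genes, 25.5% were called lower in the eye than in adult Elav cells. In adult against larval Elav cells 23.4% were called lower. Over the 8 group means the median correlation between pairs of standard subunits was 0.886, with a range from 0.128 to 0.993. These points share their arrays and the scaling of each array. Correlations among other tested genes were not worked out, so neither these nor the values that follow show a likeness particular to the proteasome. Set against the median of the other standard subunits, 19 of the 26 correlated above 0.9. The lid subunit Rpn12 had the highest value, 0.997. The lowest belonged to Prosbeta2, the beta subunit with the trypsin-like site, at 0.798, the lid subunit Rpn5 at 0.775, and Rpn6, the lid subunit that clamps lid, base and core together in yeast, at 0.633. Limma's F test over the 8 groups passed for all 26 standard subunits, against 80.7% of all tested genes.

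The range between the highest and the lowest group mean ran from 1.65 for Rpn6 to 4.54 for Rpn1, with a median of 2.71. The 6 standard subunits with the widest ranges are given array by array.

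Rpn1 is a large base subunit that docks ubiquitin receptors and the deubiquitinase known as Usp14 in animals. Its adult log2 values were 9.78, 9.51 and 9.14 in large Pdf cells, 9.66 and 8.94 in small Pdf cells, 7.04, 5.10 and 6.87 in the eye, and 8.96, 9.13 and 9.64 in Elav cells. Its larval values were 9.65, 9.36 and 9.66 in Pdf cells, 9.94, 10.52 and 10.08 in Tim cells, 8.29, 8.97 and 9.07 in Tim cells without Pdf, and 10.89, 11.26 and 10.49 in Elav cells. The eye stood alone at the bottom, and the large Pdf cells overlapped the larval Pdf cells.

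Prosalpha3, an alpha-ring subunit, had adult values of 9.51, 9.30 and 9.80 in large Pdf cells, 10.79 and 9.50 in small Pdf cells, 7.71, 5.92 and 8.72 in the eye, and 9.79, 9.60 and 9.88 in Elav cells. Its larval values were 11.60, 9.95 and 11.42 in Pdf cells, 10.77, 11.40 and 11.09 in Tim cells, 9.67, 9.70 and 9.08 in Tim cells without Pdf, and 10.41, 12.28 and 12.19 in Elav cells. Tim cells without Pdf lay within the adult range of this gene, below the other 3 larval groups.

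Prosbeta2 followed another order. Its adult values were 8.94, 8.02 and 8.78 in large Pdf cells, 10.41 and 10.64 in small Pdf cells, 10.65, 10.11 and 10.29 in the eye, and 9.78, 10.46 and 11.23 in Elav cells. Its larval values were 12.04, 11.94 and 10.92 in Pdf cells, 12.22, 12.07 and 12.45 in Tim cells, 11.45, 11.95 and 12.11 in Tim cells without Pdf, and 12.70, 12.77 and 12.63 in Elav cells. The 3 large Pdf arrays were below all other 20 arrays, and the eye overlapped adult Elav cells.

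Rpn3, a lid subunit, had adult values of 7.81, 9.56 and 10.09 in large Pdf cells, 9.78 and 9.22 in small Pdf cells, 7.30, 6.24 and 7.46 in the eye, and 8.90, 9.56 and 9.97 in Elav cells. Its larval values were 10.61, 9.20 and 10.57 in Pdf cells, 10.10, 11.04 and 10.98 in Tim cells, 8.91, 8.95 and 9.15 in Tim cells without Pdf, and 10.12, 11.73 and 11.26 in Elav cells. The eye was again below every other array.

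Prosalpha5, of the alpha ring, had adult values of 10.02, 9.02 and 9.84 in large Pdf cells, 10.46 and 9.21 in small Pdf cells, 8.57, 8.13 and 8.78 in the eye, and 9.59, 9.58 and 10.38 in Elav cells. Its larval values were 11.04, 10.61 and 11.07 in Pdf cells, 11.06, 11.01 and 11.06 in Tim cells, 9.43, 10.45 and 10.26 in Tim cells without Pdf, and 10.85, 12.66 and 12.33 in Elav cells. The Tim cells without Pdf overlapped the adult Elav cells.

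Rpn11, the metalloprotease that cuts ubiquitin chains from substrates as they enter the core, had adult values of 11.38, 9.09 and 10.45 in large Pdf cells, 12.00 and 10.73 in small Pdf cells, 9.38, 8.69 and 9.56 in the eye, and 10.87, 10.68 and 11.20 in Elav cells. Its larval values were 12.43, 11.60 and 12.71 in Pdf cells, 12.52, 12.80 and 12.67 in Tim cells, 11.81, 12.12 and 12.15 in Tim cells without Pdf, and 11.49, 12.74 and 12.49 in Elav cells. Unlike Prosalpha3, this gene had Tim cells without Pdf above every adult array but 1, a small Pdf array.

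**Figure D2:**
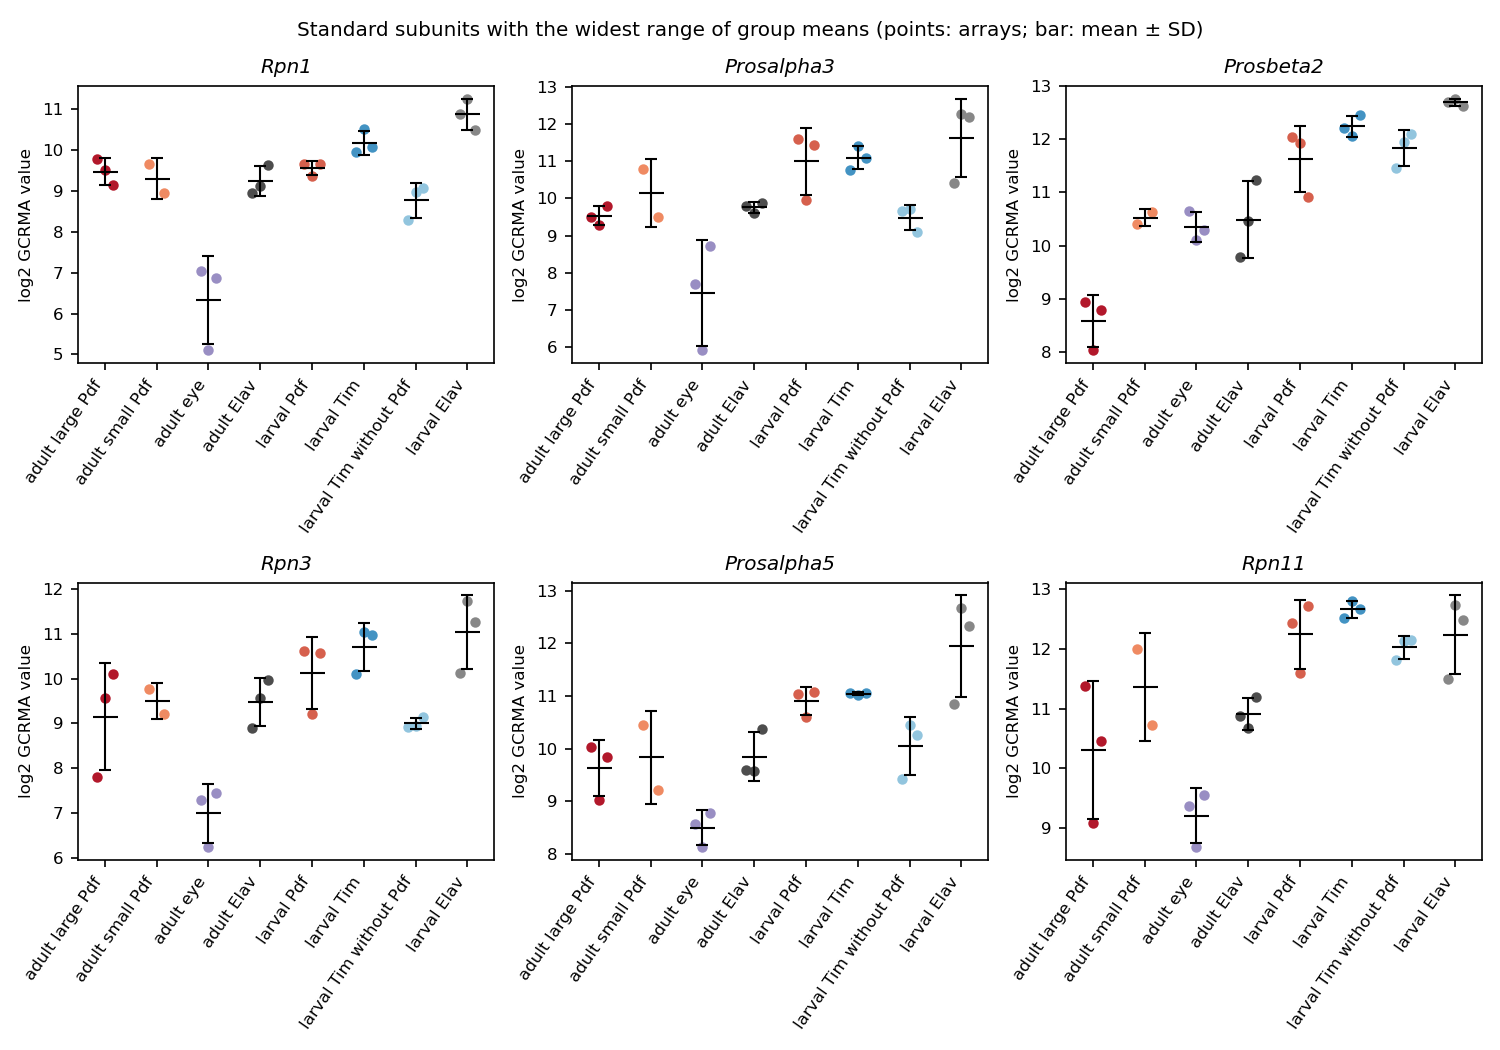
Log2 GCRMA value of the 6 standard subunits with the widest range of group means, with 1 point per array, groups along the horizontal axis and bars for the mean ± SD (n = 3, 2 for adult small Pdf). The eye is lowest for Rpn1, Prosalpha3, Rpn3, Prosalpha5 and Rpn11, whereas the large Pdf cells, at 8.02 to 8.94, are lowest for Prosbeta2.

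Adult and larval Elav cells were taken with the same driver at 2 stages, but their makeup differed. Of 10 neuronal marker genes, 9 had a group mean above 5 in adult Elav cells and 3 in larval Elav cells, where all 10 genes of dividing cells and neuroblasts were above 5, so stage and cell makeup cannot be told apart. The sources used here also do not say whether adult and larval arrays were normalised together, and a separate normalisation would bear on every difference between the stages. Of the 26 standard subunits, 22 were lower in adult Elav cells and 0 were higher, against a background of 23.4% of all tested genes called lower and 20.3% called higher. The median log2 difference was -1.53, against -0.04 for all tested genes. By part of the particle, 5 of 6 alpha subunits, 5 of 6 beta subunits, 3 of 4 base ATPases, 3 of 3 other base subunits and 6 of 7 lid subunits fell.

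The largest fall was that of Prosalpha2, an alpha subunit, which had 10.31, 10.18 and 10.68 in adult Elav cells, against 12.85, 12.82 and 12.93 in larval Elav cells. This is a log2 difference of -2.47 ± 0.42 (SE), a 5.55-fold lower level (limma adjusted p = 8.18e-05). The alpha subunit Prosalpha6 fell by 2.34 ± 0.37 (adjusted p = 3.66e-05), Prosbeta2 by 2.21 ± 0.41 (adjusted p = 0.000195) and Rpn5 by 2.11 ± 0.39 (log2 differences ± SE, adjusted p = 0.00018). The arrays of the 2 groups did not overlap for any of these 4 genes. These genes were named for the size of their fall, and the share of all tested genes without overlap was not worked out. The 4 subunits not called were Prosalpha4 (-0.93 ± 0.47), the subunit of the chymotrypsin-like site Prosbeta5 (-1.01 ± 0.55), the ATPase Rpt3 (-1.24 ± 0.52) and Rpn6 (0.28 ± 0.40, log2 differences ± SE).

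Leaving out a library changed the count of 22 more than 1.5-fold in 4 cases, to 11 and 14 without larval Elav replicate 2 or 3 and to 13 without adult Elav replicate 1 or 2, while the median difference stayed between -1.73 and -1.26. Cell markers moved with these groups: of 10 genes of dividing cells and neuroblasts, 0 had a group mean above 5 in adult Elav cells, with summed log2 levels of 6.98 to 7.14, and 10 in larval Elav cells, with 14.9 to 15.8. The neuronal genes summed to 15.6 to 16.1 in adult Elav cells and 10.7 to 13.1 in larval Elav cells. Their part in the result was not tested.

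Both stages can be compared within Pdf cells. In adult large Pdf cells, 11 of the 26 standard subunits were lower than in larval Pdf cells and 0 were higher, against 15.2% and 11.3% of all tested genes. The median log2 difference was -1.24, against -0.08 for all tested genes, and all 26 differences were below 0. Prosbeta2 fell most, by 3.05 ± 0.41 (SE), which is 8.28-fold (limma adjusted p = 3.2e-05). Prosalpha2 fell by 2.29 ± 0.42 (adjusted p = 0.000551), Rpn5 by 2.09 ± 0.39 (adjusted p = 0.000602) and Rpn11 by 1.94 ± 0.52 (adjusted p = 0.00947, log2 differences ± SE). The alpha and beta rings had median differences of -1.59 and -1.41, and the base subunits outside the ATPase ring one of -0.19, a contrast between parts of the particle that was not tested. None of these 3 base subunits was called, and Rpn1, at 9.48 ± 0.32 in large Pdf cells and 9.56 ± 0.17 in larval Pdf cells (SD, n = 3 each), differed little.

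The count of 11 dropped to 6 without large Pdf replicate 2, the array with the lowest set median among the large Pdf arrays (9.54). It was 18 after quantile normalisation of the deposited values and 5 in a fit of these 2 groups alone. Of the 10 genes of dividing cells, 2 were above 5 in large Pdf cells (summed levels 7.79 to 9.35) and 9 in larval Pdf cells (11.8 to 13.3). Blood cell (hemocyte) markers were above 5 for 3 of 8 genes in large Pdf cells and 6 of 8 in larval Pdf cells. Glial markers were above 5 for 3 of 9 in large Pdf cells and 7 of 9 in larval Pdf cells. The part of these markers in the result was not tested.

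In adult small Pdf cells, limma called 0 of 26 standard subunits against larval Pdf cells, against a background of 7.5% lower and 4.82% higher, with 5 at an unadjusted p under 0.05. The median log2 difference was -0.71, against -0.01 for all tested genes, and 24 of 26 differences were below 0. The beta subunit Prosbeta6 had the lowest difference, -1.30, and the ATPase Rpt4 the highest, 0.38. With 2 small Pdf arrays this comparison is less precise than that of large Pdf cells, and 1 subunit was called without larval Pdf replicate 3. Of the marker genes tested, 9 of 10 of dividing cells, 5 of 8 of glia and 3 of 8 of hemocytes were lower in small Pdf than in larval Pdf cells, and their part in the result was not tested.

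**Figure D3:**
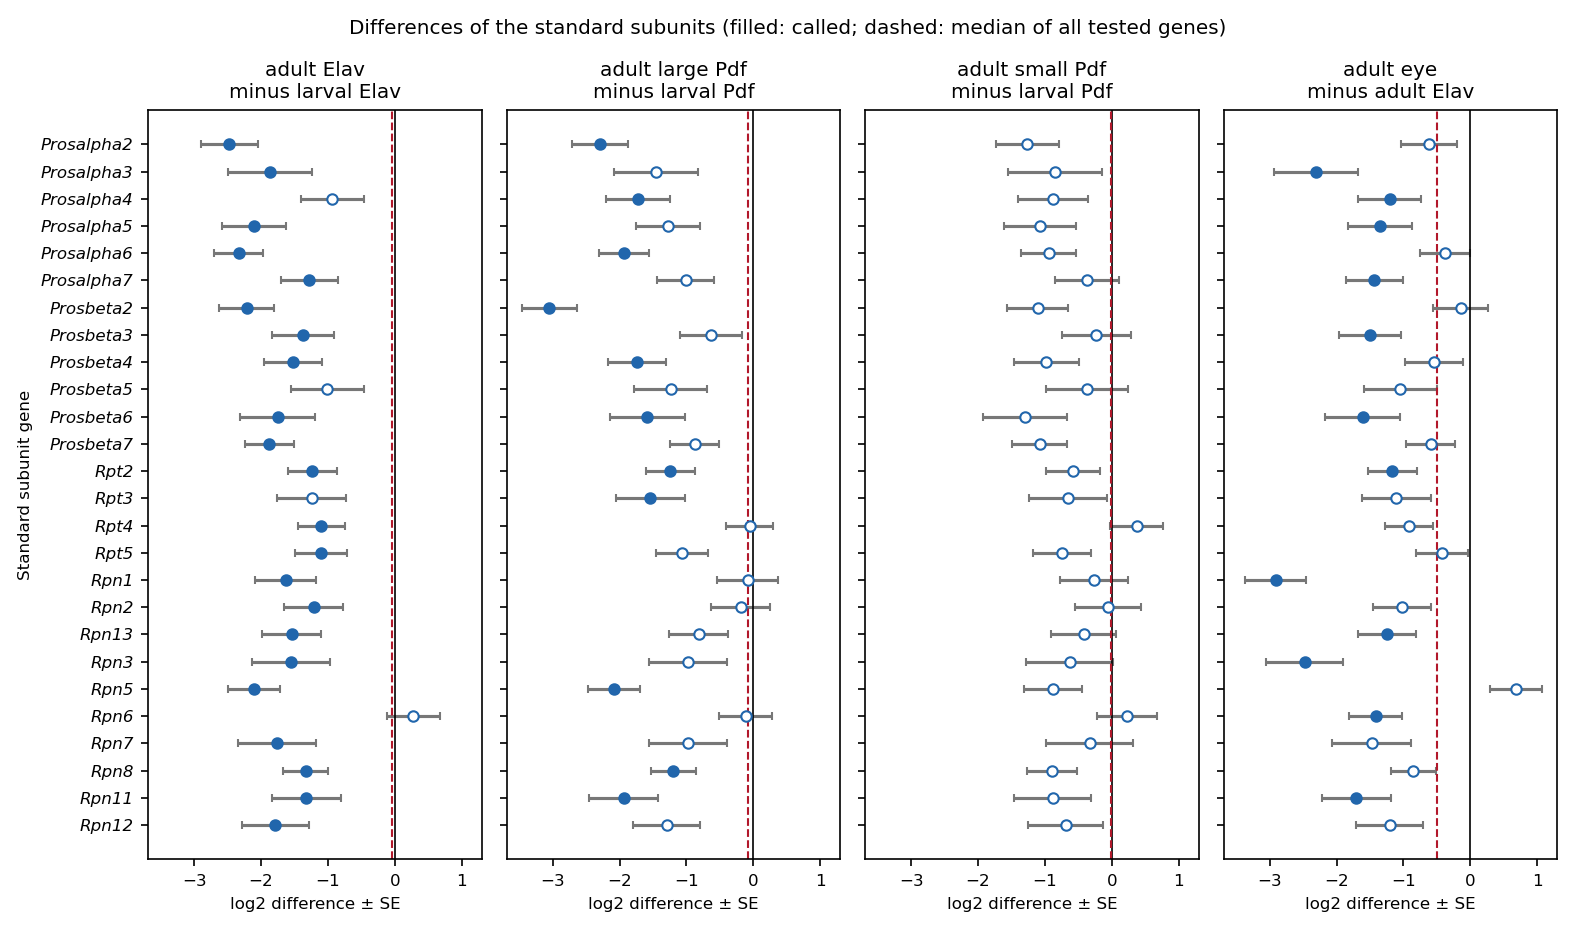
Log2 difference ± SE of each standard subunit in 3 comparisons of adult with larval cells and in the eye against adult Elav cells. Filled points were called, and the dashed line marks the median of all tested genes. Nearly all points of the stage comparisons lie left of 0, 22 of them filled for Elav cells, and in the eye the dashed line itself lies at -0.50.

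The eye was compared with adult Elav cells as another adult nervous tissue, although it is whole tissue. Its label names no sorted cell, so tissue and any difference in dissociation and picking cannot be told apart. Here 12 standard subunits were lower and 0 higher in the eye, against a background of 25.5% lower and 14.4% higher. All tested genes had a median log2 difference of -0.50, and the standard subunits one of -1.19. The largest falls were those of Rpn1 (-2.91 ± 0.46, adjusted p = 4.9e-05), Rpn3 (-2.48 ± 0.58, adjusted p = 0.00224), Prosalpha3 (-2.30 ± 0.63, adjusted p = 0.00675) and Rpn11 (-1.71 ± 0.52, adjusted p = 0.0132, limma log2 differences ± SE). Rpn5 went the other way without being called, with 11.10, 10.65 and 10.72 in the eye, against 10.07, 9.56 and 10.79 in adult Elav cells, and a log2 difference of 0.68 ± 0.39 (SE). The beta subunits Prosbeta2 and Prosbeta7 differed by -0.14 ± 0.41 and -0.59 ± 0.37.

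This comparison depended on the scaling and on single arrays. With each array centred on the median of its kept genes, or quantile normalised again, the median difference was -0.61 and 4 subunits were called, and after quantile normalisation 1 of these 4 was higher, Rpn5. The count was also 4 without eye replicate 2, whose set median was 9.07, or without adult Elav replicate 3. All 5 photoreceptor genes and 4 of 5 fat body genes were above 5 in the eye, against 0 and 1 in adult Elav cells. Photoreceptor genes summed to 16.1 to 16.6 in the eye and 4.72 to 5.57 in adult Elav cells. Hemocyte markers were above 5 for 6 of 8 genes in the eye and 2 of 8 in Elav cells, and glial markers for 7 of 9 in the eye and 3 of 9 in Elav cells. The part of these other cells in the result was not tested.

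Large and small Pdf cells, which differ in size and position in the adult brain, were each compared with adult Elav cells and with one another, so these comparisons share samples. In large Pdf cells 1 of 26 standard subunits was lower than in Elav cells and 0 were higher, against 5.66% and 3.4% of all tested genes. In small Pdf cells limma called 0 against Elav cells, with 0 at an unadjusted p under 0.05, against a background of 5.18% lower and 3.57% higher. Between large and small cells 1 was lower and 0 were higher, against 1.92% and 1.71%. The median log2 difference was -0.24 for large Pdf against Elav cells, 0.23 for small Pdf against Elav cells and -0.61 for large against small Pdf cells, where those of all tested genes were -0.07, -0.05 and 0.01.

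Prosbeta2 was the subunit called in large Pdf cells. It stood at 8.58 there, against 10.52 in small Pdf cells, a log2 difference of -1.94 ± 0.46 (SE, adjusted p = 0.0202), and against 10.49 in adult Elav cells, a difference of -1.91 ± 0.41 (adjusted p = 0.0049). The call against Elav cells was kept without any 1 of the 6 arrays. That against small Pdf cells was lost without large Pdf replicate 2 (adjusted p = 0.0652) and without small Pdf replicate 1 or 2 (adjusted p = 0.0779 and 0.124), and both were lost when only the groups compared were fitted (adjusted p = 0.182 and 0.0909). Rpn5 had the next lowest difference between large and small cells, -1.21 ± 0.43, and was not called (adjusted p = 0.144). Hemocyte markers summed to 11.98 to 12.2 in large Pdf cells, against 9.53 to 11.3 in small Pdf cells and 10.6 to 11.4 in adult Elav cells, and none of them was called between large and small cells. Glial markers summed to 8.72 to 10.2 in large Pdf cells, against 13.2 to 13.3 in small Pdf cells and 7.90 to 11.8 in adult Elav cells, and 1 of 8 tested glial genes was lower in large than in small cells. Such a sum is set mostly by its brightest gene. In each of these groups 3 of 9 glial genes had a mean above 5, and the median glial log2 difference between large and small cells was 0.03. The part of these markers was not tested.

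Among larval cells, the 3 clock groups were set against Elav cells, again sharing that group. In Pdf cells 2 standard subunits were lower and 0 higher, against 12.8% and 13.3% of all tested genes, with a median log2 difference of -0.63 against -0.11. They were Rpn1 (-1.32 ± 0.46, adjusted p = 0.0388) and the beta subunit Prosbeta7 (-1.18 ± 0.37, adjusted p = 0.0232). In Tim cells limma called 0, with 0 at an unadjusted p under 0.05, against a background of 9.63% lower and 13.8% higher, and the median difference was -0.25 against -0.09. In Tim cells without Pdf 7 were lower and 0 higher, against 25.4% and 14.7%, with a median of -0.85 against -0.23.

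The largest falls in Tim cells without Pdf were those of Prosalpha3 (-2.14 ± 0.63, adjusted p = 0.0107), Rpn1 (-2.10 ± 0.46, adjusted p = 0.0012), Rpn3 (-2.03 ± 0.58, adjusted p = 0.00935) and Prosalpha5 (-1.90 ± 0.48, adjusted p = 0.00391, limma log2 differences ± SE). Rpn6 and Rpt4 lay at 12.68 and 11.85 in these cells, against 12.54 and 11.84 in larval Elav cells. The share of subunits called, 7 of 26, was near the share of all genes called lower. Centred on the median of the kept genes, 3 were called and the median was -0.28.

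Single larval libraries decided the small counts. Without larval Elav replicate 1, whose set median was 11.40, the counts were 4 in Pdf cells, 1 in Tim cells and 10 in Tim cells without Pdf. Without larval Elav replicate 2 they were 0, 0 and 3. In Pdf cells the count was 1 without Pdf replicate 1 and 0 without Pdf replicate 2 or 3. Dividing-cell genes were above 5 for 9 of 10 in Pdf cells (summed levels 11.8 to 13.3), 10 in Tim cells (11.7 to 13.8), 5 in Tim cells without Pdf (9.78 to 11.1) and 10 in Elav cells (14.9 to 15.8). Neuronal genes were above 5 for 9 of 10 in Pdf cells, 9 in Tim cells, 8 in Tim cells without Pdf and 3 in Elav cells. Glial genes were above 5 for 7 of 9 in Pdf cells, 8 in Tim cells, 4 in Tim cells without Pdf and 3 in Elav cells. Hemocyte genes were above 5 for 6 of 8 in Pdf cells, 3 in Tim cells, 2 in Tim cells without Pdf and 1 in Elav cells. The part of these genes in the result was not tested.

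Pdf cells were also set directly against Tim cells without Pdf, which are the Tim-positive cells other than the Pdf cells. Limma called 0 of 26 standard subunits, with 3 at an unadjusted p under 0.05, against a background of 7.56% lower and 15.1% higher. Prosalpha3 had the highest difference, 1.51 ± 0.63, and Rpt4 the lowest, -0.68 ± 0.35 (log2 differences ± SE, adjusted p = 0.0911 and 0.18). The median difference of 0.16, against 0.26 for all tested genes, was -0.36 after centring, where 1 subunit was called lower, and 1 was called without larval Pdf replicate 2.

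Whether the difference between Pdf and Elav cells itself differed with stage was tested as a difference of differences. Limma called 0 of 26 standard subunits for large Pdf cells, with 1 at an unadjusted p under 0.05, against a background of 6.84% higher and 10.9% lower. For small Pdf cells it called 0, with 3 at an unadjusted p under 0.05, against 5.71% and 9.61%. The median was 0.22 for large and 0.98 for small Pdf cells on the log2 scale, and Rpt4 had the highest value for small Pdf cells (1.47 ± 0.53, adjusted p = 0.0692). In that test 1 subunit was called without larval Elav replicate 1. The Elav cells used as reference differed in makeup between stages. In the test of large Pdf cells, 8 of 9 neuronal genes were lower and 7 of 10 dividing-cell genes higher. For small Pdf cells these were 7 of 9 and 6 of 10. The part of these genes in the result was not tested.

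The 14 duplicate copies were for the most part undetected. Prosalpha3T, Prosalpha4T1, Prosalpha4T2, Prosalpha6T, Prosbeta2R1, Prosbeta4R1, Prosbeta4R2, Prosbeta5R1, Prosbeta5R2, Rpn12R and Rpt4R were at or under 3.96 on all 23 arrays. Rpn13R, a copy of the ubiquitin receptor Rpn13, was above 5 on 1 array, with 4.75, 2.72 and 5.67 in large Pdf cells. These 12 were not tested. Prosbeta2R2, a copy of the Prosbeta2 gene, was above 5 on 2 arrays, 1 of the Tim cells without Pdf (5.37, 3.98 and 3.66) and 1 of the larval Elav cells (2.51, 3.63 and 5.34). It was at 4.74 on 1 adult Elav array and under 3 on the other 2 adult Elav arrays and in the other 5 groups, and did not pass the F test (adjusted p = 0.0685).

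Rpt3R, a copy of the gene for the base ATPase Rpt3, was above 5 on 10 arrays, 9 of them larval. Its larval log2 values were 5.40, 5.94 and 5.84 in Pdf cells, 5.17, 6.47 and 6.61 in Tim cells, 3.16, 3.28 and 3.29 in Tim cells without Pdf, and 8.49, 9.71 and 9.93 in Elav cells. Its adult values were 3.05, 5.65 and 3.23 in large Pdf cells, 3.91 and 3.45 in small Pdf cells, 3.18, 3.11 and 2.86 in the eye, and 3.09, 2.50 and 3.32 in Elav cells. Larval Elav cells thus stood apart from all other groups, and Pdf and Tim larval cells overlapped at an intermediate level.

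**Figure D4:**
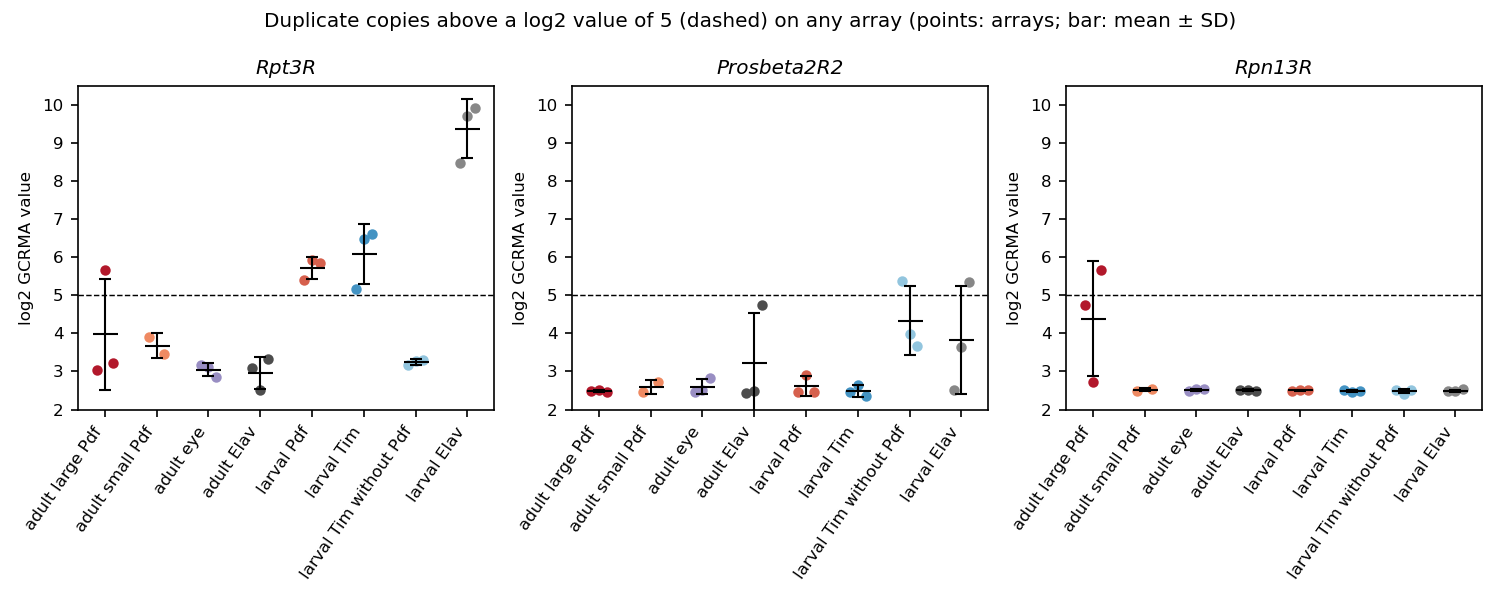
Log2 GCRMA value of the 3 duplicate copies that passed 5 (dashed line) on any array, with 1 point per array and bars for the mean ± SD (n = 3, 2 for adult small Pdf). Rpt3R reaches 8.49 to 9.93 in larval Elav cells, whereas Prosbeta2R2 and Rpn13R pass the line on 2 arrays and 1 array.

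For Rpt3R, folds given as "at least" are bounds from group means with values under 5 raised to 5. The adjusted p-values beside them are limma's on the values as deposited, so they do not test the bounds. Rpt3R was at least 20.8-fold lower in adult Elav than in larval Elav cells (limma adjusted p = 4.6e-08, 0 of 3 adult arrays above 5). It was also at least 20.8-fold lower in Tim cells without Pdf than in larval Elav cells (adjusted p = 2.17e-07, 0 of 3 arrays above 5). Larval Pdf cells were 12.5-fold lower than larval Elav cells (log2 difference -3.65 ± 0.57, adjusted p = 0.000101) and larval Tim cells 9.79-fold lower (-3.29 ± 0.57, adjusted p = 0.000305). In larval Pdf cells the level was at least 1.66-fold higher than in Tim cells without Pdf (adjusted p = 0.00431), a call lost with values under 5 raised to 5. In large and small Pdf cells it was at least 1.42-fold and 1.66-fold lower than in larval Pdf cells (adjusted p = 0.0295 and 0.0426), with 1 of 3 and 0 of 2 arrays above 5, and both calls were lost with values under 5 raised to 5. The gene passed the filter on low values mainly through its larval arrays, so a difference between stages was built into its selection. Of 7 germ line and testis genes, 2 had a group mean above 5 in larval Elav cells and 0 in the other 7 groups, with summed levels of 8.03 to 8.56 in larval Elav cells, and their part in the Rpt3R result was not tested.

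Other genes of the ubiquitin and protein folding machinery were examined as lists. Between adult and larval Elav cells, 23.4% of all tested genes were lower and 20.3% higher, with a median log2 difference of -0.04. In adult against larval Elav cells, the COP9 signalosome, a lid-like complex that removes NEDD8 from cullin ligases, had 6 of 8 genes lower and 0 higher, with a median log2 difference of -1.76. Its catalytic subunit CSN5 fell by 2.90 ± 0.40 (adjusted p = 7.81e-06), CSN1b by 2.49 ± 0.59 (adjusted p = 0.00186) and alien, the gene of another subunit, by 2.29 ± 0.41 (adjusted p = 0.000138). The CCT chaperonin, which folds actin and tubulin, had 7 of 8 lower and 0 higher, with a median of -1.82. CCT7 fell by 2.38 ± 0.48 and CCT6 by 2.18 ± 0.43. Among assembly factors and regulators of the proteasome 4 of 9 were lower and 1 higher, with a median of -1.51. The deubiquitinase Uch-L5, which binds Rpn13, had the largest fall (-3.22 ± 0.69), followed by the shuttle factor rngo (-2.38 ± 0.51) and the maturation factor Pomp (-2.02 ± 0.39). The gene for the small Maf protein maf-S, a partner of the factor cnc, rose by 1.30 ± 0.40 (log2 differences ± SE).

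Ubiquitin genes were divided in the same comparison, with 3 of 7 lower and 1 higher and a median of -1.13, beside the same background of 23.4% and 20.3%. The polyubiquitin gene Ubi-p5E rose by 1.81 ± 0.29, while RpL40 and RpS27A, which encode ubiquitin fused to ribosomal proteins, fell by 1.26 ± 0.43 and 1.13 ± 0.37, and the conjugating enzyme gene Ubc2 by 1.37 ± 0.33. Compared with larval Elav cells (11.95), Ubi-p5E was also called higher in larval Pdf cells (13.15) and Tim cells without Pdf (13.26). It was not called in larval Tim cells. Of the 6 shuttle and p97 genes 3 were lower, with a median of -0.99, among them TER94, the fly p97 ATPase (-1.53 ± 0.40), and its cofactor Npl4 (-2.36 ± 0.51). SCF and other ligases that act on clock proteins, a list that also holds Nedd8, had 4 of 10 lower and 1 higher, with a median of -0.12. The higher gene was jet, at 4.99 in adult and 3.81 in larval Elav cells, both under the limit of detection. Heat shock genes had 2 of 7 higher and 1 lower. The co-chaperone gene stv stood at 12.74 in adult Elav cells, against 3.95, under the limit of detection, in larval Elav cells. The other larval groups had stv at 11.03 in Pdf cells, 10.05 in Tim cells and 10.37 in Tim cells without Pdf. The inducible chaperone gene Hsp68 rose by 3.01 ± 0.95, and the constitutive chaperone Hsc70-4 fell by 1.23 ± 0.31 (log2 differences ± SE).

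In large Pdf against larval Pdf cells, 4 of 8 COP9 genes and 1 of 8 CCT genes were lower and 0 were higher, with medians of -1.14 and -1.06, against 15.2% lower and 11.3% higher among all tested genes. The assembly list had 2 of 9 lower and 1 higher, with Uch-L5 at 6.70 in large Pdf cells, against 9.20 in larval Pdf cells. The clock ligase list had 3 of 10 higher and 1 lower, with a median of 0.85. Its RING subunit Roc1a rose by 1.78 ± 0.43 and the cullin Cul1 fell by 1.14 ± 0.39. Also higher were CG9003, at 7.375 in large Pdf against 4.574 in larval Pdf cells, and jet, at 5.06 against 3.78. Both larval means were under the limit of detection. The p97 cofactor p47 rose by 1.57 ± 0.39 and Npl4 fell by 1.90 ± 0.51 (log2 differences ± SE). In small Pdf against larval Pdf cells, 2 of 10 clock ligase genes were higher and 0 lower, against 4.82% and 7.5% of all tested genes. These were slmb, the F-box gene for PERIOD turnover, at 9.87 in small Pdf cells against 7.76 in larval Pdf cells, and ctrip, a ubiquitin ligase gene of the clock, at 11.84 in small Pdf cells against 10.02 in larval Pdf cells.

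In Tim cells without Pdf, 6 of 8 COP9 genes and 6 of 8 CCT genes were lower than in larval Elav cells and 0 were higher, with medians of -1.55 and -1.45, while the standard subunits had 7 of 26 lower and a median of -0.85. Of all tested genes 25.4% were lower and 14.7% higher, with a median of -0.23. CSN5 fell by 1.94 ± 0.40, CCT6 by 1.65 ± 0.43, and the proteasome activator gene REG by 1.54 ± 0.43. The gene cnc, which encodes the Nrf-type factor that drives proteasome subunit genes in flies and mammals, stood at 11.19 in Tim cells without Pdf, against 8.16 in larval Elav cells, and rose by 3.04 ± 0.39 (limma adjusted p = 7.84e-06). It was also higher than larval Elav cells in larval Pdf cells (9.71, 1.56 ± 0.39) and larval Tim cells (9.71, 1.55 ± 0.39, log2 levels and differences ± SE). In these 3 comparisons 0 standard subunits were higher. Of all tested genes, 13.3% were higher in larval Pdf, 13.8% in larval Tim and 14.7% in Tim cells without Pdf. A link between cnc and the subunits was not tested.

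In the eye, cnc was 1.26 ± 0.39 higher than in adult Elav cells and rngo 2.16 ± 0.51 higher, while Usp14, the deubiquitinase bound to Rpn1, was 2.84 ± 0.83 lower. Of all tested genes 25.5% were lower and 14.4% higher in the eye, with a median log2 difference of -0.50. The clock ligase list had 4 of 10 lower and 1 higher, with the SCF adaptor SkpA lower by 2.53 ± 0.63, slmb lower by 1.89 ± 0.60 and Cul1 higher by 1.50 ± 0.39 (log2 differences ± SE). Among 7 heat shock genes 4 were lower and 0 higher. Hsp26 stood at 5.06 in the eye, against 13.69 in adult Elav cells, and Hsp27 at 7.60 in the eye, against 13.66 in Elav cells. Against adult Elav cells, 3.4% of all tested genes were higher and 5.66% lower in large Pdf cells. The shares were 3.57% and 5.18% in small Pdf cells. In both, 1 of 6 shuttle and p97 genes and 1 of 10 clock ligase genes were higher and 0 were lower. In small Pdf cells 1 of 9 assembly genes was also higher, rngo, by 1.895 ± 0.566 (limma log2 difference ± SE, adjusted p = 0.0408). The gene p47 was higher in large Pdf cells by 2.31 ± 0.39 and in small Pdf cells by 1.85 ± 0.43, and ctrip by 2.07 ± 0.48 and 3.49 ± 0.53 (log2 differences ± SE).

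**Figure D5:**
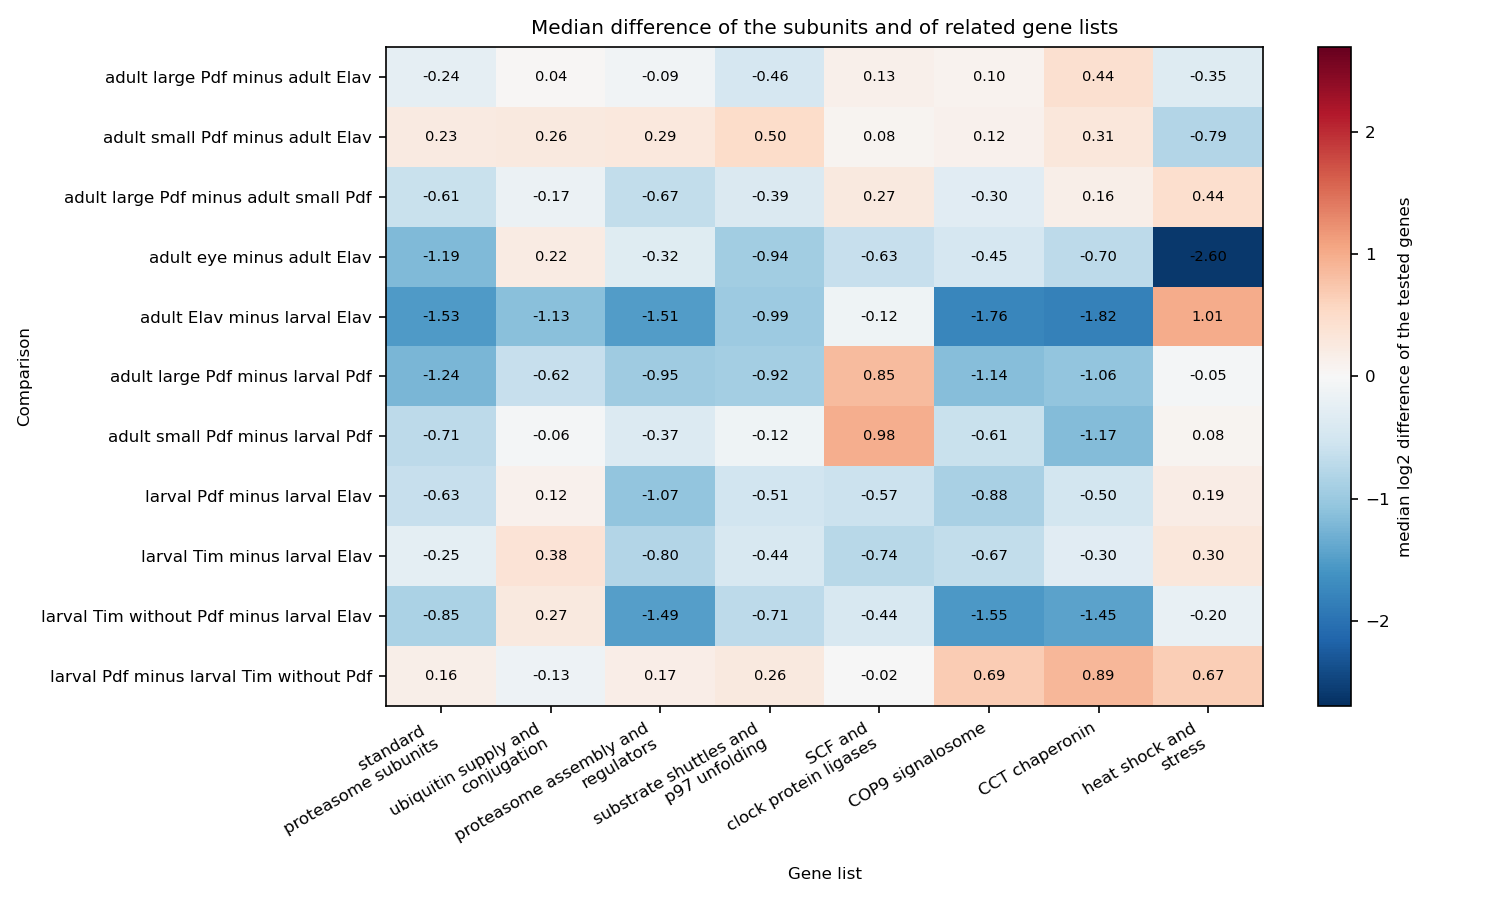
Median log2 difference of the 26 standard subunits and of 7 related gene lists (columns) in the 11 comparisons (rows), with the value in each cell. The standard subunits, COP9 signalosome and CCT chaperonin share negative medians in adult against larval Elav cells (-1.53, -1.76 and -1.82), while the clock ligases lie at -0.12.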

How the data were processed

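The deposited values are log2 expression values that the authors made with GCRMA, per the submitters' processing notes; the version is not given in the sources used here, nor is it stated there that adult and larval arrays were normalised together. Of 18952 probe sets, 13647 matched 1 gene. Symbols were updated through the gene identifier against RefSeq. Where a gene had several probe sets, the brightest on average over the 23 arrays stood for it, and each member had 1 probe set. Probe positions were not used here, so the probe sets of the 16 members whose gene overlaps a neighbouring gene in RefSeq, among them Rpt3R and Prosbeta2, were not checked for shared sequence. Genes above a log2 value of 5 on at least 2 arrays were tested, 7670 of 11982 (64.0%), among them 28 members. Means of the 8 groups were fitted jointly to all arrays with limma 3.58.1 in R 4.3.3 (15 residual degrees of freedom, eBayes, two-sided), with Benjamini-Hochberg adjustment over all tested genes. The procedure was tested on simulated data with noise drawn independently for each gene and array. Shifts shared by many genes on an array were therefore not covered by that test. Counts are over the 26 standard subunits, since duplicate copies pass the filter only where high. Named subunits are up to the 4 largest rises and falls called in a comparison, and others named for not being called or for an extreme value were chosen after their values were seen. Of the related lists, up to 3 called rises and falls per comparison were eligible. Marker sums are log2 of the summed linear values. Members and lists were chosen with earlier results of these data known. Batches could not be tested, because the labels used here name none. Alternatives were raising values under 5 to 5, quantile normalisation, no filter, array weights, the mean of a gene's probe sets, a replicate block, no fold minimum, fitting only the groups compared, leaving out each array, and, chosen after seeing the data, centring arrays on the median of the kept genes.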

Additional observations from a re-analysis of the deposited data

Results flagged for a closer look

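The base ATPase copy Rpt3R was the only one of the 28 tested members to pass limma's test of a difference of differences, Pdf minus Elav cells in adults against the same in larvae. The value was 4.66 ± 0.81 (SE, adjusted p = 0.000479) for large Pdf cells and 4.36 ± 0.86 (SE, adjusted p = 0.00166) for small Pdf cells on the log2 scale, and both share the adult Elav, larval Pdf and larval Elav samples. The adult terms rest on mean levels under the limit of detection, 3.98 in large Pdf, 3.68 in small Pdf and 2.97 in Elav cells, with 1 of 3, 0 of 2 and 0 of 3 arrays above 5. With values under 5 raised to 5, the adult differences were 0.22 for large and 0.0 for small Pdf cells. The differences of differences were then 3.87 (adjusted p = 6.11e-05) and 3.65 (adjusted p = 0.000226), so the value for small Pdf cells is the larval difference between Pdf (5.73) and Elav cells (9.38), -3.65, with its sign turned. The sizes of 4.66 and 4.36 are therefore not measured sizes of a stage effect. The gene also passed the filter on low values mainly through its larval arrays, 9 of the 10 above 5. With arrays left out in turn the values ran from 3.82 to 5.12 for large and from 4.08 to 4.80 for small Pdf cells. The adult and larval Elav cells used as reference also differed in makeup. No cause was tested.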

How the results depend on the processing

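Of 65 called pairs of member and comparison, 56 of them of standard subunits, 24 were kept under all alternatives tried and 0 changed direction. The 24 are not all of standard subunits. They include Rpt3R in both differences of differences, in adult against larval Elav cells, and in each larval clock group against larval Elav cells. Calls lost were 3 of 65 with array weights, 5 without the filter, 14 with quantile normalisation, 18 with centring (chosen after seeing the data), 3 with values under 5 raised to 5, 0 with the mean of probe sets and 17 of 63 when only the groups compared were fitted. The counts of called standard subunits moved as follows. With quantile normalisation they were 4 in the eye against Elav cells, 18 in large Pdf against larval Pdf, 1 in small Pdf against larval Pdf and 1 in larval Pdf against larval Elav. With array weights they were 8, 1 and 12 for larval Pdf, Tim and Tim without Pdf against larval Elav, and 2 for the stage difference of small Pdf enrichment. That last count was 1 with values under 5 raised to 5, without the filter, and with centring. Centring gave 4 for the eye, 1 for larval Pdf and 3 for Tim without Pdf against larval Elav, and 1 for larval Pdf against Tim without Pdf. Fitting only the groups compared gave 0 for large Pdf against adult Elav or small Pdf, 5 for large Pdf against larval Pdf and 1 for larval Pdf against larval Elav. The median difference of the eye moved to -0.61 with quantile normalisation and with centring, that of Tim without Pdf against larval Elav to -0.28 and that of larval Pdf against Tim without Pdf to -0.36 with centring. The cause of these moves was not tested. Replicate numbers did not pair the samples (correlations of same-numbered deviations from -0.317 to 0.17, and in 0 comparisons over 0.1 for every one of 3 pairs). With the replicate number as a block, 1 subunit was called in larval Pdf against larval Elav, and 3 of the 65 calls were lost. Leaving out 1 array at a time gave ranges of 11 to 24 for adult against larval Elav, 6 to 13 and 0 to 1 for large and small Pdf against larval Pdf, and 4 to 15 for the eye. It gave 0 to 4, 0 to 1 and 3 to 10 for larval Pdf, Tim and Tim without Pdf against larval Elav, 0 to 1 for larval Pdf against Tim without Pdf, 1 in each case for large Pdf and 0 for small Pdf against adult Elav, and 0 to 1 for large against small Pdf. It gave 0 and 0 to 1 for the stage difference of large and small Pdf enrichment, and 26 to 28 members past the F test. Groups of 3 or 2 arrays limit which differences can be called, and values near 5 carry little signal over the GCRMA background.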
